A study of Mus musculus with 4 samples.

Results

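A set of 9 doublecortin-domain genes of the mouse, *Dcdc2a*, *Dcdc2b*, *Dcdc2c*, *Dcx*, *Dclk1*, *Dclk2*, *Dclk3*, *Rp1* and *Rp1l1*, was examined in RNA that was precipitated with TSSK2. They were picked by gene symbol, and all 9 were found among the 21936 genes of the count table. The related genes *Dcdc1* and *Dcdc5* were not matched there and are not in the set. TSSK2 is a testis-specific serine kinase of the late chromatoid body (late-CB), an RNA and protein granule of elongating spermatids. Cells from the testes of adult C57BL/6 mice were fixed with PFA before lysis and sonication, and the pellet was used for precipitation with an anti-TSSK2 antibody (TSSK2-IP, 2 libraries) or, for the negative control, with mouse IgG (control IgG-IP, 2 libraries). By the labels the groups differed in the antibody alone, and the number of animals behind a library was not stated. P-values therefore measure the spread between these libraries, which may be technical.

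The doublecortin domain binds microtubules, and most proteins that carry it sit on stable microtubule bundles. DCX and DCLK1 are known from migrating neurons, RP1 and RP1L1 from the axoneme of the photoreceptor outer segment, and DCDC2 from primary cilia. DCDC2C is found in the sperm flagellum. The comparison asked which of these mRNAs were recovered in larger amounts with TSSK2 than with IgG, and the *Dcdc2c* mRNA is the member that the study itself took up from its list of TSSK2-associated mRNAs, so its direction is not independent evidence.

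None of the doublecortin-domain mRNAs passed the thresholds (0 of 7 tested). *Dcdc2c* had a mean normalized level 2.55 times that of control IgG-IP and *Dcdc2b* one 2.50 times that of control IgG-IP, whereas for *Rp1* and *Rp1l1* both TSSK2-IP libraries lay below both controls. The values of the other 3 tested members overlapped between the groups, and *Dcx* and *Dclk3* had too few counts to be tested. Of all tested genes 27.3% had both TSSK2-IP libraries above both controls and 21.6% had both below. In the same comparison 0.693% of 14722 genes were called higher and 0.0% lower, where a call needed an absolute log2 fold change of 1 or more and a Benjamini-Hochberg adjusted p no higher than 0.05 in the quasi-likelihood test of edgeR. At an unadjusted p under 0.05 1 member, *Dcdc2c*, was higher and 0 were lower, where 8.34% of all tested genes were higher and 4.89% lower. DESeq2 called 0 members as well, and of 21267 genes with a count it called 139 higher and 0 lower. Its test gave *Dcdc2c* an adjusted p of 0.289. The study, which used DESeq2 and the same thresholds, counts *Dcdc2c* among its TSSK2-associated mRNAs. That call was not reproduced here. The study also lists more such mRNAs in all than the 139 that DESeq2 called here, so that the shortfall is not particular to *Dcdc2c*. Why the calls differ was not tested. A log2 fold change above 0 was found for 3 of the 7 tested members and for 49.2% of all tested genes, and a value of 1 or more for 2 members and for 11.1% of all. In 0 members was each TSSK2-IP library at least 2-fold above each control library, which 4.01% of all tested genes reached.

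The annotated *Dcdc2c* gene (ENSMUSG00000020633) lies on the minus strand of chr12:28437795-28552399 (GRCm38) and has 6 transcripts, with 3583 exon bases in all. RefSeq gives 2 start sites, 4062 bases apart, and the deposited counts do not separate them. Both upstream sequences are shown because the transcripts that begin there have different last exons, together with the sequence upstream of *Dcdc2b*, the other member with both TSSK2-IP libraries above both control libraries. Each sequence holds the 250 bases before the start site, 5′ to 3′ on the gene's strand, from RefSeq (GRCm38.p6). Capitals mark matches, on either strand, to TGACG, the core of the cyclic AMP response element bound by CREM, or to GTTGCC, the core of the X-box bound by RFX factors, both known as regulators in spermatids. The 2 motifs do not overlap in these windows.
Dcdc2c upstream start, chr12:28552400-28552649, minus strand: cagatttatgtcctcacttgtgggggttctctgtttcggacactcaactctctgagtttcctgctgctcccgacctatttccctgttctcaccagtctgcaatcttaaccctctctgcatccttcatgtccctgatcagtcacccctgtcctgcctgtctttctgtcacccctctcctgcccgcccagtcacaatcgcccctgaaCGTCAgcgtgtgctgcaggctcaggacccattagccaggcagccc
Dcdc2c downstream start, chr12:28548338-28548587, minus strand: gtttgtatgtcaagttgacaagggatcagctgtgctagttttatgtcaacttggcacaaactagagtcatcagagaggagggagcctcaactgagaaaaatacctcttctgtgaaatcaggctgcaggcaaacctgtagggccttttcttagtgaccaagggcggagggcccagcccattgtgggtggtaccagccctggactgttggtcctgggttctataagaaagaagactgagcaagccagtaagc
Dcdc2b start, chr4:129614273-129614522, minus strand: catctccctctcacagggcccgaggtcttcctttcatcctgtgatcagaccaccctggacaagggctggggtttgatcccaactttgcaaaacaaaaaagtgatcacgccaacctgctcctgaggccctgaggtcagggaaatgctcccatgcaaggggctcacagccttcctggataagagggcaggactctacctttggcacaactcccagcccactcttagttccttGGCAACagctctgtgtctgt
TGACG was found 1 time before the upstream start of *Dcdc2c*, and GTTGCC was found 1 time, in its reverse complement, before *Dcdc2b*. The downstream *Dcdc2c* window held 0 matches to either. Of 32851 mouse promoter windows of this length, 17.8% held TGACG and 10.4% held GTTGCC, so that such matches are frequent. Promoter windows were found for 6 of the 9 members, and *Dclk3*, *Rp1* and *Rp1l1* had none in the table.

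The downstream *Dcdc2c* start belongs to a transcript of 9 exons whose last exon, chr12:28437795-28438471, lies far beyond the ends of the other transcripts. That exon is 677 bases long, which is 18.9% of the exon bases of the gene. A stretch of 503 bases within it, of which only 12 are coding, matched transcripts of 19 other genes over at least 150 bases with at least 97% identity, with the longest match at 494 bases. In the reference genome 78.1% of the exon is soft-masked as repeat sequence. Over all exons the masked share was 22.6% in *Dcdc2c*, and in the other 8 members it was between 3.87% in *Dcdc2b* and 14.0% in *Dcdc2a*, none of which had such a match. How reads that map to several places were counted was not stated, and the table gives counts per gene and not per exon. The part of this exon in the *Dcdc2c* counts was not tested, and it could not be read from counts per gene.

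**Figure D1:**
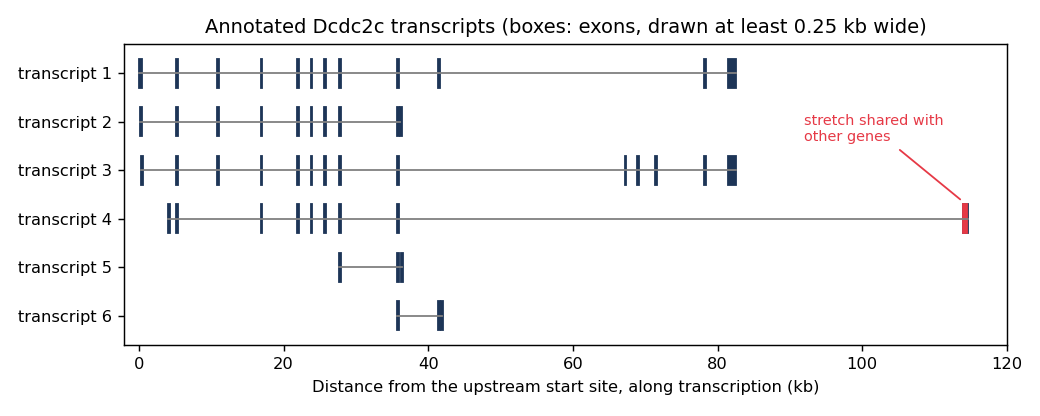
Exons (boxes) of the 6 annotated Dcdc2c transcripts against the distance in kb from the upstream start site, in the direction of transcription. Only transcript 4, which starts 4062 bases downstream, has the last exon with the stretch shared with 19 other genes (red).

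Sequencing depth and the spread between libraries bear on every member. The libraries held between 3938922 and 9858941 counts, and 1 count was worth between 0.156 and 0.230 normalized CPM, the count scaled to the TMM-adjusted size of the library. The TSSK2-IP libraries had a Pearson's r of 0.97 across genes on the log2 CPM scale. The control IgG-IP libraries had 0.94 with each other, and control IgG-IP replicate 2 had 0.93 and 0.94 with the TSSK2-IP libraries. The other control stood farther from both of them, at 0.90 and 0.90. Genes are not independent replicates, so these values describe the libraries only. With 2 libraries against 2, an exact two-sided permutation test cannot go below p = 0.333. The tissue label, testis, was set beside 18 spermatid markers. That none of them was at 0 in all libraries does not tell tissues apart, since it held for neuronal and photoreceptor markers too. The summed level of the spermatid markers was 9406 and 10110 CPM in TSSK2-IP but 12767 and 28318 CPM in control IgG-IP. It was highest in control IgG-IP replicate 1. The neuronal and photoreceptor sums reached at most 52.2 and 74.9 CPM. Of the 20 markers of somatic testis cells none was at 0 in all libraries either, and their sum was between 146 and 154 CPM in TSSK2-IP and 87.4 and 182 CPM in control IgG-IP. Whether these differences have a part in the values below was not tested. In such precipitates from mixed cells, the number of cells of a type, the RNA per cell and its recovery cannot be told apart.

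*Dcdc2c* was the most abundant member per kilobase of exon in all 4 libraries. It had 567 and 696 counts in TSSK2-IP and 249 and 258 in control IgG-IP, although control IgG-IP replicate 1 was by far the deepest library. These counts equalled 118 and 132 normalized CPM in TSSK2-IP and 38.8 and 59.3 in control IgG-IP. The groups did not overlap, and the lower TSSK2-IP library was 1.98 times above the higher control library. The means were 125 ± 10.5 and 49.1 ± 14.4 CPM (SD, n = 2 each). The log2 fold change was 1.35 (standard error 0.44), and 769 of the 14722 tested genes had a larger value. Its adjusted p of 0.253 (edgeR's quasi-likelihood test, Benjamini-Hochberg) did not pass the threshold. By its p the gene ranked 507th. With 1 control library left out, the fitted value stayed on the same side and passed, at 1.13 without control IgG-IP replicate 1 (adjusted p = 3.71e-09) and at 1.62 without the other control (adjusted p = 1.12e-17, same edgeR test). In the first of these fits 5.38% of 16620 genes were called higher and 2.56% lower, and in the second 17.9% of 15406 genes were called higher and 17.4% lower, so that passing there is not particular to *Dcdc2c*. Both fits take the spread from the TSSK2-IP libraries alone and assume that the lone control library varies like them.

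*Dcdc2b* (ENSMUSG00000078552, chr4:129608331-129614257) had a fold change close to that of *Dcdc2c* but rested on far fewer counts, 76 and 98 in TSSK2-IP and 10 and 53 in control IgG-IP. The normalized level was 15.8 and 18.6 CPM in TSSK2-IP and 1.56 and 12.2 CPM in control IgG-IP. Both TSSK2-IP libraries lay above both controls, but control IgG-IP replicate 2 was much nearer to them than to the other control library. The means were 17.2 ± 2.05 and 6.87 ± 7.51 CPM (SD, n = 2 each). The log2 fold change of 1.37 (standard error 0.67) had an adjusted p of 0.392 from the same edgeR test. Control IgG-IP replicate 1 decided its size, since the log2 fold change was 0.56 when it was left out and 3.38 when the other control was left out (adjusted p = 0.245 and 4.46e-13, edgeR). In all 18 exon bases of *Dcdc2b* overlap *Tmem234* on the opposite strand, which had 74 and 105 counts in TSSK2-IP and 170 and 65 in control IgG-IP and a log2 fold change of -0.24. Whether strand was used in the counting was not stated.

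*Dcdc2a* (ENSMUSG00000035910, chr13:25056004-25210706), which encodes DCDC2, a protein of the ciliary axoneme, had 206 and 275 counts in TSSK2-IP and 501 and 187 in control IgG-IP. On the normalized scale this was 42.7 and 52.3 CPM in TSSK2-IP and 78.2 and 43.0 CPM in control IgG-IP, so that control IgG-IP replicate 2 lay within 1 CPM of the lower TSSK2-IP library and the groups overlapped. The means were 47.5 ± 6.80 and 60.6 ± 24.9 CPM (SD, n = 2 each). A log2 fold change of -0.35 was fitted, with a standard error of 0.43 and an adjusted p of 0.733 in edgeR, and it turned to 0.20 without control IgG-IP replicate 1.

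**Figure D2:**
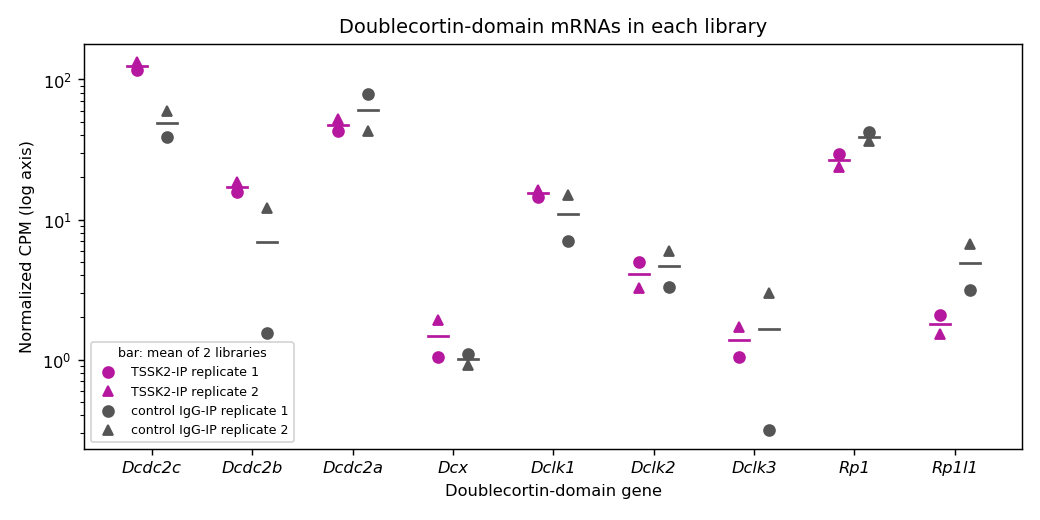
Normalized CPM (log axis) of the 9 doublecortin-domain genes in each TSSK2-IP library (magenta) and control IgG-IP library (grey), with a bar at the mean of 2 libraries. Both magenta points lie above both grey points for Dcdc2c and Dcdc2b and below both for Rp1 and Rp1l1.

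The photoreceptor axoneme genes had their higher values in control IgG-IP. *Rp1* (ENSMUSG00000025900, chr1:3999557-4409241), in which mutations cause retinitis pigmentosa in humans, had 141 and 124 counts in TSSK2-IP and 269 and 158 in control IgG-IP. Its level was 29.2 and 23.6 CPM in TSSK2-IP and 42.0 and 36.3 CPM in control IgG-IP, without overlap. The means were 26.4 ± 3.98 and 39.1 ± 4.01 CPM (SD, n = 2 each), the most even pair of controls among the members above 10 CPM. Its log2 fold change of -0.57 had a standard error of 0.39 and an adjusted p of 0.520 in edgeR, and it stayed between -0.75 and -0.40 when each library was left out in turn. *Rp1l1* (ENSMUSG00000046049, chr14:63992506-64035025), its paralogue, had only 10 and 8 counts in TSSK2-IP and 20 and 29 in control IgG-IP. This was 2.07 and 1.52 CPM against 3.12 and 6.66 CPM, again without overlap, with means of 1.80 ± 0.389 and 4.89 ± 2.51 CPM (SD, n = 2 each). Its log2 fold change of -1.42 was the lowest of the family but had a standard error of 0.79 and an adjusted p of 0.432 from edgeR's test. It passed only without control IgG-IP replicate 1, at -1.82 (adjusted p = 0.0424, edgeR). Among all tested genes 27.3% had both TSSK2-IP libraries above both controls and 21.6% below both, so that 2 members above and 2 below among 7 tested are near the background.

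The doublecortin-like kinases carry a kinase domain beside the doublecortin domains. *Dclk1* (ENSMUSG00000027797, chr3:55242364-55539068) had 70 and 85 counts in TSSK2-IP and 45 and 65 in control IgG-IP, or 14.5 and 16.2 CPM against 7.02 and 14.9 CPM. Control IgG-IP replicate 2 thus lay between the TSSK2-IP libraries. For *Dclk1* edgeR gave a log2 fold change of 0.50 with a standard error of 0.47 and an adjusted p of 0.648. It was 0.10 when control IgG-IP replicate 1 was left out, and 1.06 with an adjusted p of 0.00480 (edgeR) when replicate 2 was. Its exons overlap those of *Gm42609* by 87 bases and those of *Gm21954* by 27 bases, both on the opposite strand, and *Gm21954* had at most 3 counts in a library.

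*Dclk2* (ENSMUSG00000028078, chr3:86786151-86920852) was low, with 24 and 17 counts in TSSK2-IP and 21 and 26 in control IgG-IP, and its groups overlapped. Its log2 fold change of -0.16 (standard error 0.68, edgeR's adjusted p = 0.939) had either sign when single libraries were left out. *Dclk3* (ENSMUSG00000032500, chr9:111439081-111489118) had 5 and 9 counts in TSSK2-IP and 2 and 13 in control IgG-IP. The control libraries enclosed the TSSK2-IP libraries. *Dcx* (ENSMUSG00000031285, chrX:143855842-143933311), the founding member, known from lissencephaly, had 5 and 10 counts in TSSK2-IP and 7 and 4 in control IgG-IP, or between 0.919 and 1.90 CPM in all libraries. For *Dclk3* and *Dcx* no difference was detectable at this depth. The exact Poisson 95% interval of the 10 *Dcx* counts, the most in a library, runs from 4.80 to 18.4 counts and covers counting error only.

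**Figure D3:**
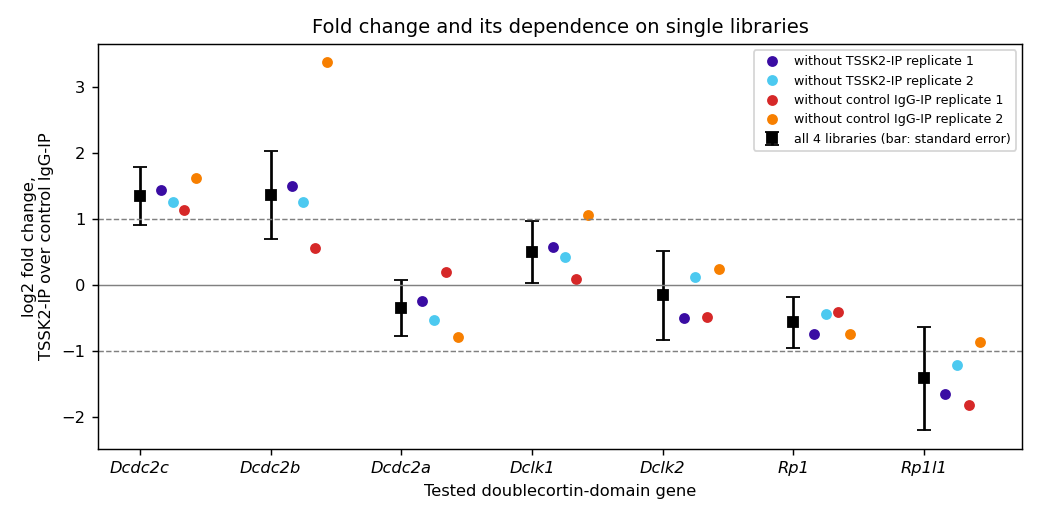
Log2 fold change of TSSK2-IP over control IgG-IP for the 7 tested doublecortin-domain genes, with all 4 libraries (squares, bars for the standard error) and with each library left out (points); dashed lines mark a log2 fold change of 1 and -1. Leaving out control IgG-IP replicate 2 moved Dcdc2b to 3.38, while Dcdc2c stayed between 1.13 and 1.62.

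Levels of different members can be set side by side only per length. In TSSK2-IP the mean level per kilobase of exon was 34.9 ± 2.94 normalized CPM for *Dcdc2c*, 12.5 ± 1.49 for *Dcdc2b*, 5.74 ± 0.821 for *Dcdc2a* and 2.15 ± 0.324 for *Rp1* (SD, n = 2 each). The ranges of these neighbours did not overlap in TSSK2-IP, and *Dclk1* followed at 1.00 ± 0.0769. *Dclk3*, *Dclk2*, *Rp1l1* and *Dcx* were between 0.457 and 0.116 per kilobase, and *Dclk3* and *Dclk2* were not separated by their ranges. In control IgG-IP the mean was 13.7 ± 4.03 for *Dcdc2c*, 7.31 ± 3.005 for *Dcdc2a*, 5.01 ± 5.48 for *Dcdc2b* and 3.18 ± 0.326 for *Rp1* (SD, n = 2 each). There *Dcdc2a* came before *Dcdc2b*, but their ranges overlapped, as did those of *Dcdc2b* and *Rp1*, while *Dcdc2c* lay apart from *Dcdc2a* and *Rp1* from *Dclk1*. *Dcdc2c* ranked at the 93.7th and 94.6th percentile of all genes with a count in TSSK2-IP, and at the 79.7th and 88.0th percentile in control IgG-IP. *Dcx* was at or below the 9.53th percentile in every library.

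Shares within the family need no scaling between libraries. The 9 genes had 1104 and 1322 counts in TSSK2-IP and 1124 and 793 in control IgG-IP. *Dcdc2c* took 51.4% and 52.6% of them in TSSK2-IP and 22.2% and 32.5% in control IgG-IP. The 95% Wilson intervals, which cover counting error only, ran from 48.4% to 55.3% over the TSSK2-IP libraries and from 19.8% to 35.9% over the control libraries. Shares are parts of the same total, so that a larger *Dcdc2c* share lowers those of the other members. The *Rp1* share was 12.8% and 9.38% in TSSK2-IP and 23.9% and 19.9% in control IgG-IP. The number of *Rp1* counts per *Dcdc2a* count, which leaves *Dcdc2c* out, overlapped between the groups. It was 0.684 and 0.451 in TSSK2-IP and 0.537 and 0.845 in control IgG-IP. *Dcdc2a* took 18.7% and 20.8% in TSSK2-IP, but 44.6% in control IgG-IP replicate 1 and 23.6% in replicate 2, so that the controls differed from each other more than replicate 2 differed from TSSK2-IP. The number of *Dcdc2c* counts per *Dcdc2a* count was 2.75 and 2.53 in TSSK2-IP and 0.497 and 1.38 in control IgG-IP. *Dcdc2b* took 6.88% and 7.41% in TSSK2-IP, 0.890% in control IgG-IP replicate 1 and 6.68% in replicate 2, whose Wilson interval of 5.15% to 8.64% includes both TSSK2-IP values.

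**Figure D4:**
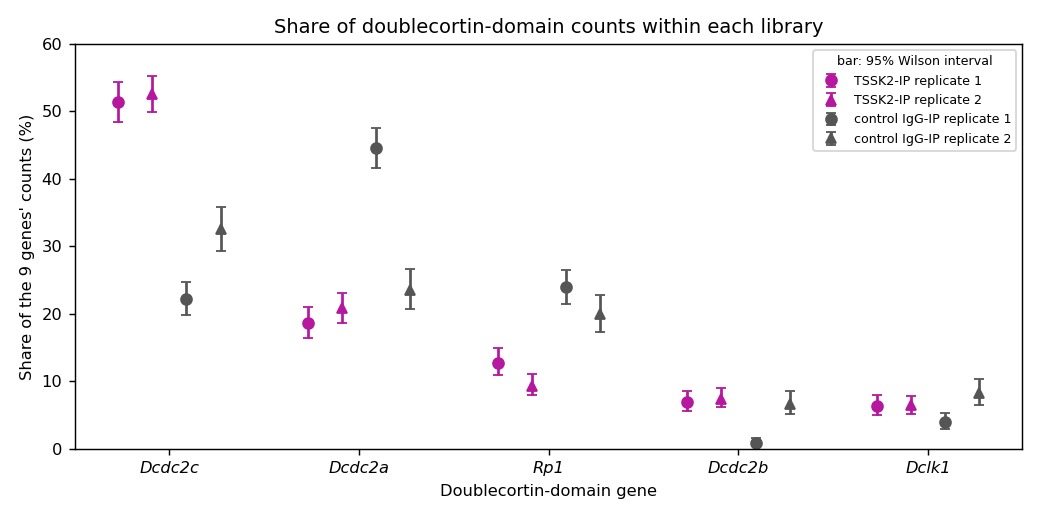
Share (%) of the counts of the 9 doublecortin-domain genes that fell on each of 5 members in every library, with 95% Wilson intervals as bars. The Dcdc2c share is 51.4% and 52.6% in TSSK2-IP (magenta) and 22.2% and 32.5% in control IgG-IP (grey), while for Dcdc2b and Dcdc2a the second control library (triangle) is near the TSSK2-IP libraries.

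The tested doublecortin-domain genes had a median log2 fold change of -0.16, where the median of all tested genes was -0.02. Over the members tested in each fit, the median ran from -0.16 without TSSK2-IP replicate 2 to 0.31 when control IgG-IP replicate 2 was left out. It was -0.27 with DESeq2's size factors and 0.21 under a filter of 10 counts in each library, so that its sign depended on the setting. Other microtubule genes were set beside them as lists. Of 54 genes of microtubule-associated proteins, 51 were tested and 0 were called, with a median of -0.22 (edgeR, 3 higher and 3 lower at an unadjusted p under 0.05). The smallest p-values there were those of *Saxo2*, a protein related to stabilisers of axonemal microtubules, with 47.3 and 49.3 CPM in TSSK2-IP and 7.02 and 21.1 CPM in control IgG-IP, of *Mapre1*, a plus-end binding protein, and of *Spast*, a microtubule-severing enzyme. Their log2 fold changes were 1.79, 1.31 and -1.43 (adjusted p = 0.153, 0.205 and 0.317 from edgeR's test). Of 20 tubulin genes 17 were tested and 0 were called, and 0 had an unadjusted p under 0.05 in edgeR. Their median was -0.44, and over the genes tested without control IgG-IP replicate 1 it was -0.10. The smallest p-values among tubulins belonged to *Tuba1a* (2.09), *Tubb4b* (-1.28) and *Tubal3* (1.36), given with their log2 fold changes.

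The proteins inside the doublet microtubules of the sperm axoneme formed the list with the lowest median, -0.68. All 23 such genes in the table were tested, 0 were called by edgeR, 1 was lower at an unadjusted p under 0.05, and 2 had a log2 fold change above 0, against 49.2% of all tested genes. In 13 of them both TSSK2-IP libraries lay below both controls, against 21.6% of all tested genes. *Cfap53*, *Tekt2* and *Tekt1* had the smallest p-values, with log2 fold changes of -1.14, -1.23 and -1.22 and a lowest adjusted p of 0.367 in edgeR. Tektins are filament proteins of the axoneme. *Tekt2* had 169 and 172 CPM in TSSK2-IP and 556 and 242 CPM in control IgG-IP, so that the distance rested largely on control IgG-IP replicate 1. The list's median was -0.14 without that library and -1.14 without the other control. The log2 fold changes of *Dcdc2c*, *Dcdc2b* and *Dclk1* were above those of all 23 of these genes. For *Dcdc2c* this is not independent evidence, since the study took it from its list, and these differences were not tested.

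Spermatid markers had a median of -0.40 over 18 tested genes, with 0 called, and *Akap4*, *Akap3* and *Oaz3* had the smallest p-values (log2 fold changes of -1.74, -1.26 and -1.09). Over the genes tested in each fit this median was -0.09 when control IgG-IP replicate 1 was left out and -0.72 when replicate 2 was. Markers of spermatocytes had a median of 0.22 over 10 tested genes, with 0 called, and the smallest p-values were those of *Hormad1* (0.71), *Spo11* (0.41) and *Msh4* (0.41). That median turned to -0.05 when control IgG-IP replicate 2 was left out and was 0.08 with DESeq2's size factors. For somatic cells of the testis the median of 16 tested markers was 0.42, with 0 called, and the smallest p-values were those of *Wt1* (0.93), *Cyp17a1* (0.69) and *Star* (0.77). Over the genes tested in each fit, the somatic median was 0.11 when control IgG-IP replicate 1 was left out and 0.96 when replicate 2 was. In all 3 lists, 0 genes had an unadjusted p under 0.05 in edgeR.

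Neurons and photoreceptors are the cells in which DCX and RP1 are best known. Of 10 neuronal markers only 4 had enough counts to be tested, and all 10 had a summed level of 33.7 and 34.2 CPM in TSSK2-IP and 20.9 and 52.2 CPM in control IgG-IP. Of 12 photoreceptor markers 7 were tested, and the sum over all 12 was 41.9 and 53.7 CPM in TSSK2-IP and 34.2 and 74.9 CPM in control IgG-IP. None of either list was at 0 in all libraries, 0 were called and 0 had an unadjusted p under 0.05 in edgeR, and the medians of those tested were 0.01 and 0.06. Over the genes tested in each fit, their sign depended on the control library kept. The neuronal median was -1.03 when control IgG-IP replicate 1 was left out and 0.81 when replicate 2 was. The photoreceptor median was -0.61 and 0.92, in the same order. The smallest p-values were those of *Nefm* (-0.95), *Rbfox3* (0.45) and *Dlg4* (0.31) among neuronal genes and of *Sag* (-0.37), *Pde6a* (-0.41) and *Nrl* (-0.38) among photoreceptor genes, given as log2 fold changes.

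**Figure D5:**
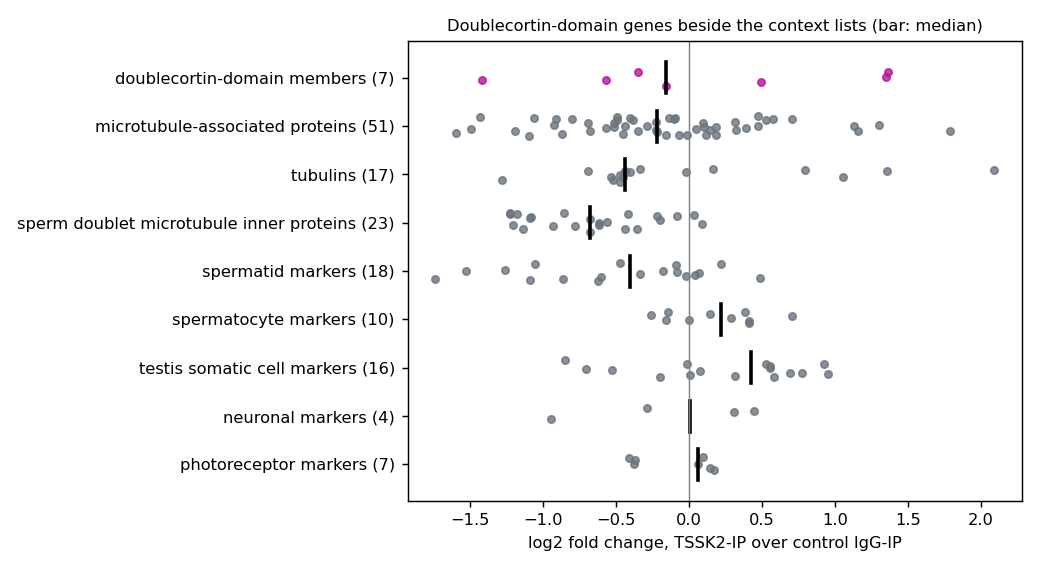
Log2 fold change of TSSK2-IP over control IgG-IP for each tested gene (points) of the doublecortin-domain family (magenta, 7 genes) and of 8 context lists (grey), with the number tested in parentheses and a bar at the median. The family spreads from -1.42 to 1.37 around a median of -0.16, and the axonemal list lies almost wholly below 0, with a median of -0.68.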

How the data were processed

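RNA precipitated from mouse testis (TSSK2-IP, 2 libraries, and control IgG-IP, 2 libraries) was sequenced directionally, without rRNA removal. The submitters' processing notes name Trimmomatic 0.39, STAR 2.7.10a, featureCounts 2.0.3 and GRCm38, which the authors used for trimming, mapping and counting. The deposited values are raw counts per gene, not normalized. Strand setting and treatment of multi-mapping reads are not given in the sources used here.

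Of 21936 identifiers, 21894 were named from GENCODE vM21 (GRCm38). Counts were fitted over all genes with edgeR 4.0.16 (filterByExpr, TMM, glmQLFit, glmQLFTest) in R 4.3.3, which left 14722 genes. Standard errors were derived from the log2 fold change and F. Shared sequence was searched with BLAST+ 2.17.0. Fits were also run on simulated counts with known changes, as a check of the code only. The fit was repeated with upper-quartile scaling, with the size factors of DESeq2 1.42.0 and with its test, without a filter, with at least 10 counts in every library, with the replicate number as a block and without each library in turn. Members and gene lists were chosen with earlier results of these data known. Besides the members, the genes named are those whose exons overlap a member, the 3 of each list with the smallest p, and the 5 whose log2 CPM pattern was nearest to *Dcdc2c*. *Dcdc5*, *Dcdc1* and *Tektip1*, also listed, could not be matched to the table. Genes sharing sequence with *Dcdc2c* were named after their values were seen. DDX4-IP libraries were not analysed here.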

Additional observations from a re-analysis of the deposited data

How the results depend on the processing

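The number of called doublecortin-domain members was 0 under every alternative except those leaving out a control library, and ranged from 0 to 3 over the libraries left out in turn. It was 2 without control IgG-IP replicate 1 (*Dcdc2c* and *Rp1l1*) and 3 without control IgG-IP replicate 2 (*Dcdc2c*, *Dcdc2b* and *Dclk1*), in fits that called 894 genes higher and 426 lower of 16620, and 2755 higher and 2688 lower of 15406. The log2 fold change of *Dcdc2c* ranged from 1.13 to 1.62 with single libraries left out and from 1.23 to 1.39 otherwise, where its adjusted p lay between 0.242 and 0.298. With single libraries left out *Dcdc2a* ranged from -0.78 to 0.20, with the sign turned without control IgG-IP replicate 1, and *Dclk2* from -0.50 to 0.25, with the sign turned without TSSK2-IP replicate 2 (0.12) or control IgG-IP replicate 2. *Rp1l1* could not be tested with at least 10 counts in every library. With DESeq2's size factors the median of all tested genes moved to -0.14. The number of all genes called higher was 20 with upper-quartile normalization, 29 with at least 10 counts in every library, 283 without a filter and between 23 and 2755 with single libraries left out. The number called lower was 24 without a filter and between 0 and 2688 with single libraries left out. The cause was not tested.

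With the replicate number as a block, *Dcdc2c* had a log2 fold change of 1.38 (adjusted p = 0.271 from edgeR), no member passed, and 274 genes were called higher and 3 lower. The deviations of same-numbered libraries had a correlation of 0.13 across genes, with only 2 pairs. In the study's precipitation method the lysate was split between TSSK2 and IgG beads. Whether same-numbered libraries came from the same lysate was not stated.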

Other observations

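The tested genes whose log2 CPM, centred over the 4 libraries, lay nearest to that of *Dcdc2c* were *Prelid1*, *Mt2*, *Galc*, *Setd4* and *Polr3k*, at Euclidean distances of 0.0468, 0.0496, 0.0515, 0.0632 and 0.0668. A distance of at most 0.25 was reached by 83 genes, 0.564% of those tested. Among the members *Dclk1* was the nearest, at 0.870 and rank 2317, and *Dcdc2b*, with a like fold change, was at 1.55 and rank 7141.

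Of the 19 genes that share the repeat-masked stretch of the last exon of *Dcdc2c*, 8 were in the count table and tested. Their log2 fold changes ran from -1.40 for *Prkcq* to 3.18 for *D10Wsu102e*, with a median of 0.01, 4 were above 0 and 0 passed the thresholds in edgeR (lowest adjusted p = 0.0606, that of *D10Wsu102e*). *Ppil4* and *Dhtkd1* were at 0.86 and 0.30, and *Dhx33*, *Rpia* and *Tmem72* at -0.27, -0.39 and -0.96. *D10Wsu102e* had 3381 and 3211 counts in TSSK2-IP and 260 and 455 in control IgG-IP. *Gm7102* had 35 counts in each TSSK2-IP library and 5 and 30 in control IgG-IP, with a log2 fold change of 0.91. Whether any of these counts came from the shared stretch was not tested.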
